A study of Mus musculus with 4 samples.

Results

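The interferon-inducible genes for sensing foreign or misplaced nucleic acid were followed through the cells of a mouse pancreatic tumour: Oas1a, Oas2, Oas3, Oasl1 and Oasl2, Ifih1, Ddx58 and Dhx58, and Zbp1 and Eif2ak2. They were chosen by gene symbol as members of the OAS family or as sensors of RNA and DNA, and are 10 of the 32285 features counted in each library. The study treated 2 mice with TAK-981 (Subasumstat), an inhibitor of the enzyme that activates SUMO, and gave 2 mice the Cremophor vehicle. All 4 mice were of the B6/129 F1J strain and carried tumours of KPC46, 1 mouse pancreatic cancer organoid line. Each tumour gave 1 droplet library of single-cell RNA counts, so n = 2 mice per group throughout, and all tumours come from this 1 line. The dose, the length of treatment and the age and sex of the mice are not given in the sources used here.

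The oligoadenylate synthetases Oas1a, Oas2 and Oas3 bind double-stranded RNA and make short adenylate chains that act as a second messenger of infection. The RIG-I-like receptors RIG-I (Ddx58) and MDA5 (Ifih1) bind viral RNA and signal through the mitochondrial adaptor Mavs to induce interferon, and interferon in turn raises the transcription of most of these genes through a complex that holds Stat2 and Irf9. SUMO is a small protein attached to other proteins, and SUMOylation is known from mouse and human cells to restrain interferon induction.

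The genes lie on 5 mouse chromosomes (GRCm38, named mm10 in the submitters' processing notes). Oas1a (chr5:120896256-120907521), Oas2 (chr5:120730333-120749853) and Oas3 (chr5:120753098-120777661), all on the minus strand, lie in a cluster. Oasl2 (chr5:114896936-114912234) and Oasl1 (chr5:114923240-114937915) are neighbours on the plus strand of the same chromosome. Ifih1 (chr2:62595798-62646255), Zbp1 (chr2:173206612-173218923), Ddx58 (chr4:40203773-40239828), Dhx58 (chr11:100694884-100704271) and Eif2ak2 (chr17:78852564-78882573) are on the minus strand. Of the 50-base stretches in the last 500 bases of Oas1a transcripts, where these libraries are read, 56.1% (253 of 451) were also found in its near copy Oas1g, so that Oas1a counts are uncertain. The figure was 2.44% for Oas3 and 0 for each of the other 8. Gm13822 overlaps Oasl1 and Dhx58os overlaps Dhx58 on the opposite strand.

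RefSeq promoter windows (GRCm38.p6, from 250 bases before to 50 after the start of the gene) matched 7 of the 10 symbols, and Oas2, Dhx58 and Zbp1 were the others. The windows were searched on both strands for GAAANNGAAA, a core of the interferon-stimulated response element bound by Irf9 with Stat2. It occurred in 5 of the 7 windows (Oas1a, Oas3, Ifih1, Ddx58 and Eif2ak2), against 3.44% of 32851 promoters. TTCNNNGAA, the gamma-activated site, occurred in 2 of the 7 (Oas1a and Eif2ak2), against 8.30% of promoters, and no match of it overlapped one of the first motif. The windows of 4 genes are shown 5′ to 3′ on the strand of the gene because their genes differed in what was measured below, with epithelial log2 fold changes above 2 for Oas1a and Oas3, under 1 for Oasl1 and near 0 for Eif2ak2. Capitals mark GAAANNGAAA matches, which form an overlapping pair in Oas1a. A match is a description of letters, and no factor was measured at any of these windows.
Oas1a (chr5:120907476-120907775, minus strand): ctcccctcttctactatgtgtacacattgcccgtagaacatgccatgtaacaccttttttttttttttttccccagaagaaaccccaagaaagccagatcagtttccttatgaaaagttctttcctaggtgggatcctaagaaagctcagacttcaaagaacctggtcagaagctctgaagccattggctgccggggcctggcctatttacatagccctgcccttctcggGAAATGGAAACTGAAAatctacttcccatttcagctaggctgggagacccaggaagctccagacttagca
Oas3 (chr5:120777610-120777909, minus strand): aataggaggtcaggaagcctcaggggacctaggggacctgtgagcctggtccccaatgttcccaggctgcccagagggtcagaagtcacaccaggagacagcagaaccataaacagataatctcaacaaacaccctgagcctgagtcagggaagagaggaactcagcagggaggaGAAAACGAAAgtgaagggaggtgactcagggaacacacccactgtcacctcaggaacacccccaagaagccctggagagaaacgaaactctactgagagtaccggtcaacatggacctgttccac
Eif2ak2 (chr17:78882523-78882822, minus strand): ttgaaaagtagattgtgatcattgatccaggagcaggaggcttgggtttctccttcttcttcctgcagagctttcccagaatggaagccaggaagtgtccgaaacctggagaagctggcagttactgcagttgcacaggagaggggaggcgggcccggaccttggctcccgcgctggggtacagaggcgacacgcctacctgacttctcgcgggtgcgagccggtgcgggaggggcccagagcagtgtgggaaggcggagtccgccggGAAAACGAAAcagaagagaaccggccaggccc
Oasl1 (chr5:114922990-114923289, plus strand): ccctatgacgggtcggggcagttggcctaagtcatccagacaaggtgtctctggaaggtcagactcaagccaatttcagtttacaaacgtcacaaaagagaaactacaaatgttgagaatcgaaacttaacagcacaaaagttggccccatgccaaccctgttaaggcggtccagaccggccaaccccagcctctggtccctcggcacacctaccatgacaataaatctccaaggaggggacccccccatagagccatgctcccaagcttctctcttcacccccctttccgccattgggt

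The libraries held 2214 and 3110 cells under TAK-981 and 4408 and 4130 cells under vehicle after filtering, with median depths of 5024.5 and 12831 UMIs under TAK-981 against 2269 and 4152.5 UMIs under vehicle. A UMI is a molecular barcode, so that each counted UMI stands for 1 captured RNA molecule. The median mitochondrial share was 6.90 and 5.11% under TAK-981 against 2.93 and 2.71% under vehicle, so depth and mitochondrial share both differed between the groups. In epithelial cells thinned to equal depth, only Oasl1, Ifih1 and Eif2ak2 had UMIs enough to test. None of them was called, against 4.89% of all genes, and the other genes, Oas1a, Oas3 and Zbp1 among them, were not tested there. None of the 10 genes was called in epithelial cells of at most 10% mitochondrial UMIs (2.35% of all genes), as in the main comparison. The labels name no batch, and treatment and an unnamed batch cannot be told apart here. Any pair of libraries shared 1 to 10 barcodes. Clusters were named from marker genes, and 7 classes had enough cells to compare. Over the 4 libraries together, all 10 epithelial, all 11 macrophage and all 8 neutrophil markers were detected in the class of that name. In the second vehicle library alone, 7 of the 10 epithelial markers were detected in epithelial cells. Levels below are in CPM, meaning UMIs of the gene per 1000000 UMIs of its class in that library after adjustment of the total, and they compare the same gene between samples, not one gene with another.

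Epithelial cells, in which tumour and normal epithelium were not told apart, numbered 580 and 1712 under TAK-981 and 731 and 1719 under vehicle. For 9 of the 10 genes both TAK-981 levels lay above both vehicle levels, an arrangement seen in 27.1% of the 12708 genes tested, and Eif2ak2 overlapped. None of the 10 passed the test (edgeR quasi-likelihood test, Benjamini-Hochberg adjusted p under 0.05), against 2.35% of all genes in either direction and 0.606% called higher. At an unadjusted p under 0.05 there were 6 of the 10, against 21.1% of all genes, and DESeq2 called 3 of the 10 (Oas1a, Oas3 and Zbp1), with no adjusted p for Oas2, against 10.0% of all genes. The median log2 fold change (TAK-981 over vehicle) was 1.72 over the 10 genes and 0.01 over all genes tested. Summed over the 10 genes, the level was 99.2 and 95.3 CPM under TAK-981 and 65.1 and 56.2 CPM under vehicle. In plain CPM, which are UMIs per 1000000 of the unadjusted total, both TAK-981 values lay above both vehicle values for all 10 genes, and for 59.9% of all genes.

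Among the synthetases, Oas3, the largest of them, which prefers long double-stranded RNA, measured 5.30 and 4.00 CPM in TAK-981 epithelial cells and 1.08 and 0.585 CPM in vehicle epithelial cells. Its log2 fold change was 2.50 ± 0.51 (SE), with an edgeR adjusted p of 0.0608, the smallest of the 10. Oas1a, a small active synthetase, measured 1.44 and 5.60 CPM under TAK-981 against 0.539 and 0.117 CPM under vehicle, from 28 and 322 UMIs under TAK-981 and 6 and 2 under vehicle. The levels did not overlap, but the TAK-981 tumours lay far apart from each other, and the log2 fold change of 3.54 ± 0.97 had an adjusted p of 0.113. Oas2, the middle-sized synthetase, measured 1.18 and 0.731 CPM under TAK-981 against 0.359 and 0 CPM under vehicle with a log2 fold change of 2.58 ± 1.16 and an adjusted p of 0.265. The Oas2 value ran from 1.38 to 7.89 without a single tumour.

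The OAS-like proteins add ubiquitin-like domains to the synthetase fold. Oasl1, which in mice blocks translation of the interferon regulator Irf7 and so acts as a brake, measured 25.1 and 31.6 CPM under TAK-981 and 22.4 and 14.7 CPM under vehicle. The groups lay close, and the log2 fold change of 0.62 ± 0.29 had an adjusted p of 0.276. Oasl2, which in mice still makes oligoadenylates, measured 9.72 and 5.31 CPM under TAK-981 against 3.23 and 1.64 CPM under vehicle, a log2 fold change of 1.64 ± 0.50 with an adjusted p of 0.135.

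The RIG-I-like receptors were unequal. Ifih1, encoding MDA5, the sensor of long double-stranded RNA, measured 7.77 and 5.79 CPM in TAK-981 epithelial cells and 3.41 and 1.75 CPM in vehicle epithelial cells (log2 fold change 1.40 ± 0.44, adjusted p = 0.142). Dhx58, encoding LGP2, which binds RNA but cannot signal and tunes the other receptors, measured 1.75 and 1.41 CPM under TAK-981 against 0.629 and 0.292 CPM under vehicle (1.81 ± 0.62, adjusted p = 0.170). Ddx58, encoding RIG-I, the sensor of RNA with an uncapped triphosphate end, measured 6.17 and 5.72 CPM under TAK-981 against 3.95 and 4.33 CPM under vehicle (0.52 ± 0.32, adjusted p = 0.398). Ddx58 thus had the smallest fitted change of the 3 receptors, and the difference between the receptors was not tested.

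The other sensors act outside the RIG-I-like pathway. Zbp1, the sensor of Z-form nucleic acid that can start necroptosis through Ripk3 and Mlkl, measured 11.0 and 4.80 CPM under TAK-981 and 1.62 and 0.292 CPM under vehicle. Its log2 fold change was 3.12 ± 0.81 with an adjusted p of 0.101. Eif2ak2 encodes PKR, the kinase that halts translation when it binds double-stranded RNA, and measured 29.8 and 30.4 CPM under TAK-981 against 27.9 and 32.5 CPM under vehicle. Both Eif2ak2 values under TAK-981 lay between the vehicle values, and its log2 fold change of -0.0049 ± 0.21 spanned both directions (adjusted p = 0.993).

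**Figure D1:**
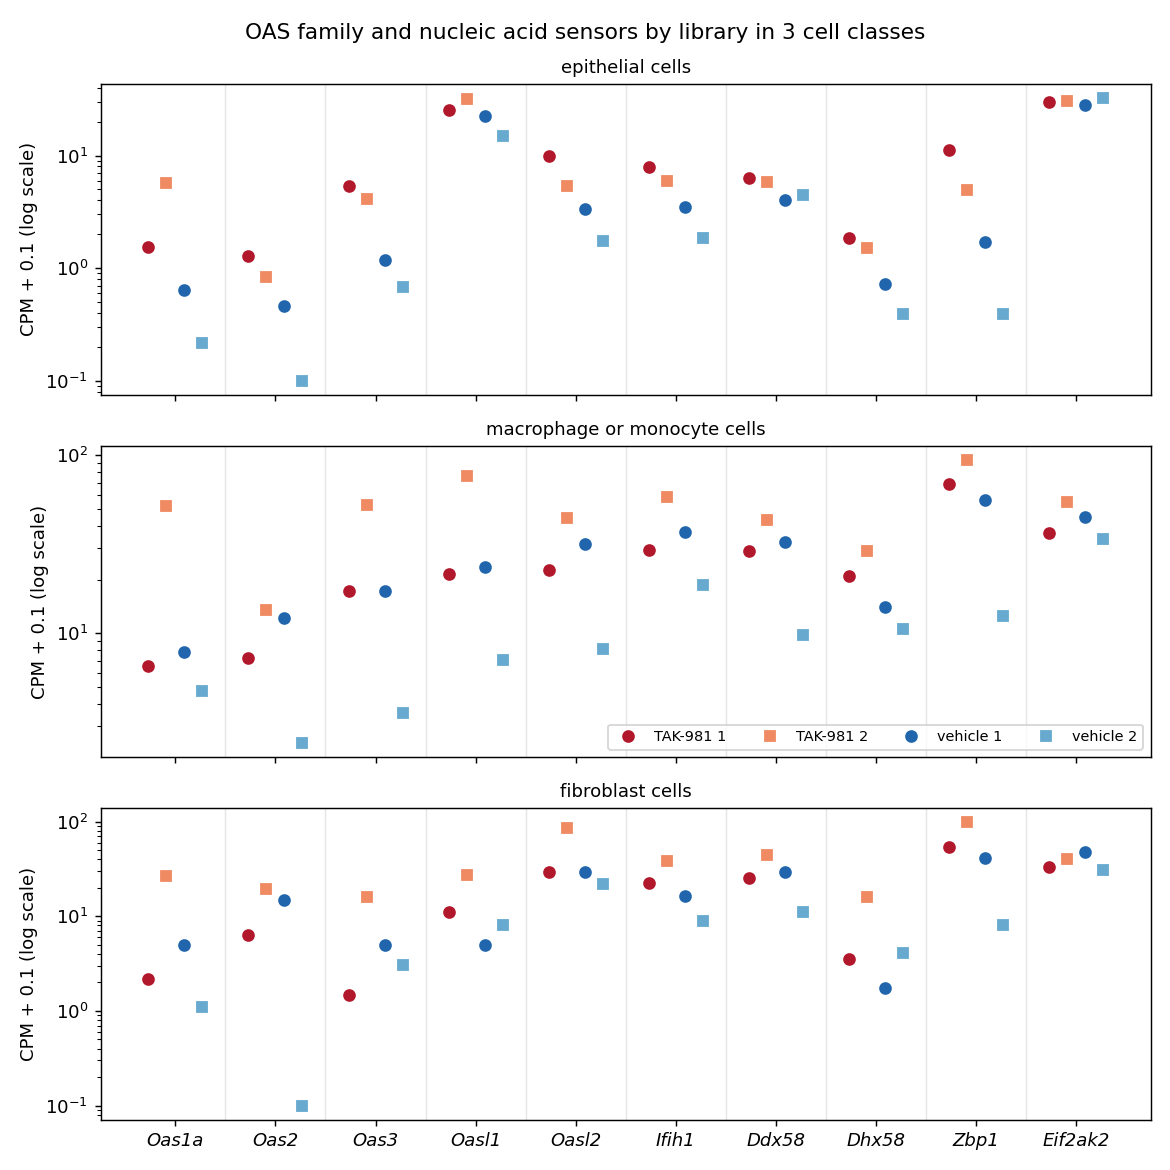
Level of each of the 10 genes, as CPM + 0.1 on a log axis, in epithelial cells (top), macrophages or monocytes (middle) and fibroblasts (bottom), with a point per library and TAK-981 (red and orange) left of vehicle (blue). In epithelial cells the TAK-981 points of 9 genes lie above both vehicle points, while in macrophages the points of each group are spread apart, as for Zbp1 at 68.9 and 93.5 CPM under TAK-981 against 55.7 and 12.3 CPM under vehicle.

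The libraries held the epithelial clusters unevenly. Cluster 5, led by Hspb1 and Cxcl5, held 238 and 972 cells under TAK-981 and 67 and 21 under vehicle. Cluster 16, led by Ttr and Ambp, held 250 and 45 under TAK-981 against 8 and 1 under vehicle, and cluster 21, led by Tff2 and Tff1, held 13 and 369 under TAK-981 against 2 and 1 under vehicle. Cluster 4, led by Prl, held 33 and 40 under TAK-981 against 211 and 1511 under vehicle. Only cluster 3, led by Prl3d2 and Top2a, and cluster 4 had at least 30 cells in every library. A fit restricted to these 2 clusters, chosen after the data were seen, held 72 and 312 TAK-981 cells and 647 and 1696 vehicle cells and called none of the 7 genes it could test, against 3.61% of all genes.

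Within those shared clusters Oas1a had a log2 fold change of 2.67 (adjusted p = 0.127) and Oas3 of 2.02 (adjusted p = 0.154). Ifih1 was 0.15 (adjusted p = 0.916), far under its value in the whole class, and the median over the 7 was 0.83. Zbp1, Oas2 and Dhx58 had too few UMIs there to test. Zbp1 had 0 and 5 UMIs under TAK-981 against 5 and 0 under vehicle in cluster 3, and 0 and 0 under TAK-981 against 3 and 3 under vehicle in cluster 4. Its epithelial UMIs under TAK-981 lay in clusters scarce under vehicle, with 90 and 148 in cluster 5, 106 and 3 in cluster 16 and 0 and 108 in cluster 21. Summed over the 10 genes, and in plain CPM, cluster 3 had 93.8 and 81.3 under TAK-981 against 50.2 and 57.3 under vehicle, and cluster 4 had 85.3 and 97.5 under TAK-981 against 45.0 and 43.5 under vehicle. The cluster 4 sums came from 16 and 24 UMIs under TAK-981, 9 and 13 of them Eif2ak2, against 139 and 773 under vehicle. In cluster 3, 7 of the 10 genes had both TAK-981 values above both vehicle values, against 44.2% of the genes tested in epithelial cells, while in cluster 4 Eif2ak2 alone did, against 33.9%, and Zbp1 lay the other way.

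Macrophage RNA was measured in the epithelial class because macrophages hold more of most of these transcripts. The 11 macrophage markers, all detected, summed to 576 and 173 CPM in TAK-981 epithelial cells and 180 and 113 CPM in vehicle epithelial cells, which is 2.22 and 0.862% under TAK-981 against 1.20 and 0.608% under vehicle of their sum in macrophages. At those shares macrophage RNA would carry 1.53 and 0.806 CPM of Zbp1 under TAK-981 against 0.667 and 0.0750 CPM under vehicle. With that taken off, Zbp1 was left at 9.48 and 3.99 CPM under TAK-981 and 0.951 and 0.217 CPM under vehicle. In the epithelial cells with no macrophage-marker UMI (82 and 344 under TAK-981 against 134 and 843 cells under vehicle), 6 genes could be tested and none was called, against 3.9% of all genes, with a median log2 fold change of 0.83.

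**Figure D2:**
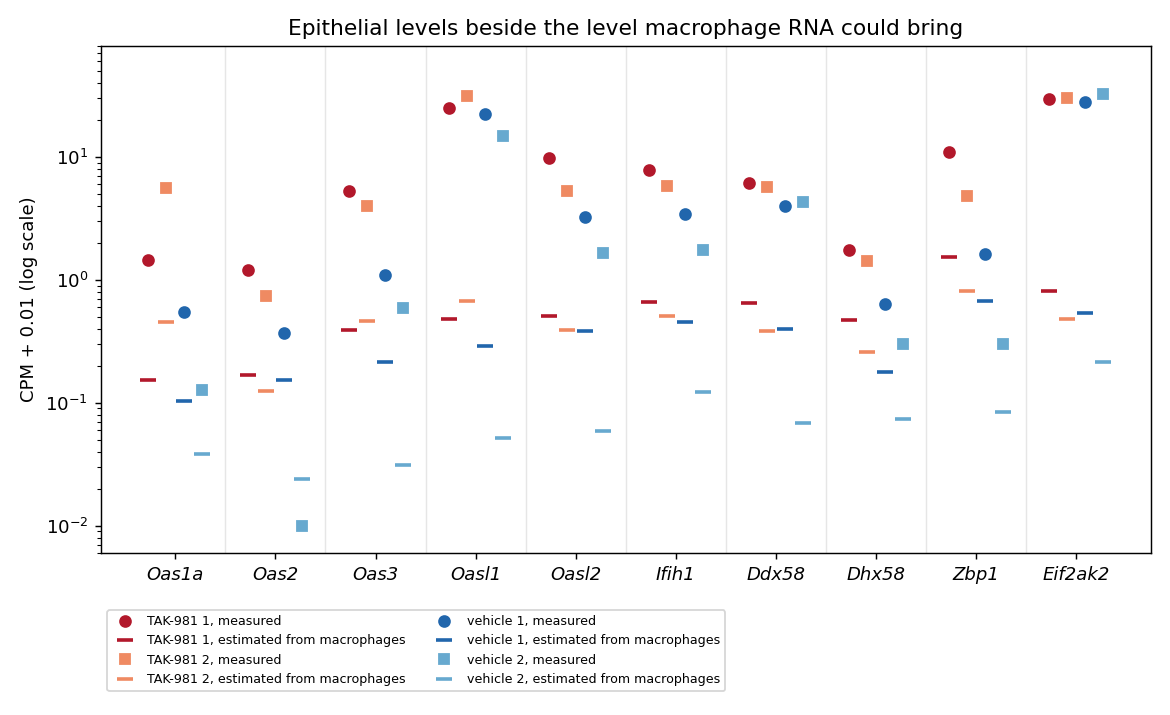
Epithelial level of each gene (points, CPM + 0.01 on a log axis) beside the level that macrophage RNA would carry into the class (dashes), by library, with TAK-981 (red and orange) left of vehicle (blue). The dashes lie under the points except for Oas2 in the vehicle library where its level is 0, and the Zbp1 dashes stand at 1.53 and 0.806 CPM under TAK-981, against 0.667 and 0.0750 CPM under vehicle.

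Macrophages and monocytes numbered 778 and 671 cells under TAK-981 and 1482 and 823 under vehicle, with a high and a low tumour in each group. The second TAK-981 tumour exceeded the first for all 10 genes (49.3% of all genes tested), and the first vehicle tumour exceeded the second for all 10 (50.7%). These 2 counts were 10 and 8 in fibroblasts (50.5 and 49.3% of all genes) and 9 and 8 in endothelial cells (49.3 and 49.3%). In epithelial cells they were 3 and 8 (50.7 and 52.8%). The 10 genes summed to 259 and 516 CPM under TAK-981 and to 275 and 110 CPM under vehicle, so the sums overlapped on this scale. In plain CPM they were 282 and 553 under TAK-981 and 249 and 103 under vehicle and did not overlap. The scaling moved the median of all macrophage genes by 0.24 on the log2 scale. None of the 10 was called, and neither was any of the 10652 genes tested (0.0%). At an unadjusted p under 0.05 there were 4 of the 10, against 13.3% of all genes (1421 genes), and DESeq2 called 265 genes (2.49%) and none of the 10. Dhx58 and Zbp1 alone had both TAK-981 values above both vehicle values, 2 of 10 against 23.3% of all genes (5 of 10 against 40.8% in plain CPM), and the median log2 fold change was 0.87 over the 10 and 0.01 over all genes.

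Zbp1 measured 68.9 and 93.5 CPM in TAK-981 macrophages and 55.7 and 12.3 CPM in vehicle macrophages (log2 fold change 1.22 ± 0.56, edgeR adjusted p = 0.405). Dhx58 measured 20.7 and 28.8 CPM under TAK-981 against 13.9 and 10.4 CPM under vehicle (1.01 ± 0.29, adjusted p = 0.217), the steadiest of the 10 by its standard error relative to its change. Oas1a measured 6.42 and 51.5 CPM under TAK-981 against 7.76 and 4.62 CPM under vehicle, so that 1 TAK-981 tumour stood alone (2.18 ± 0.88, adjusted p = 0.354). Without the first TAK-981 tumour the log2 fold change of Oas1a was 3.01, and it was then called, with an adjusted p of 0.00672, as were 0.489% of all genes.

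Oas3 and Oasl1 had the same shape as Oas1a. Oas3 measured 17.1 and 52.4 CPM in TAK-981 macrophages and 17.1 and 3.47 CPM in vehicle macrophages (1.66 ± 0.69, adjusted p = 0.370). Oasl1 measured 21.3 and 76.6 CPM under TAK-981 against 23.3 and 6.93 CPM under vehicle (1.64 ± 0.68, adjusted p = 0.366). In both genes the first tumours of the groups were level and the second tumours far apart. Oas2 (7.15 and 13.3 CPM under TAK-981 against 12.1 and 2.31 CPM under vehicle), Oasl2 (22.6 and 44.1 under TAK-981 against 31.5 and 8.09 under vehicle), Ifih1 (29.2 and 58.1 under TAK-981 against 37.0 and 18.5 under vehicle), Ddx58 (29.0 and 43.0 under TAK-981 against 32.4 and 9.63 under vehicle) and Eif2ak2 (36.3 and 54.3 under TAK-981 against 44.5 and 33.9 under vehicle) overlapped between the groups. Their log2 fold changes ran from 0.20 for Eif2ak2 to 0.73 for Ddx58.

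**Figure D3:**
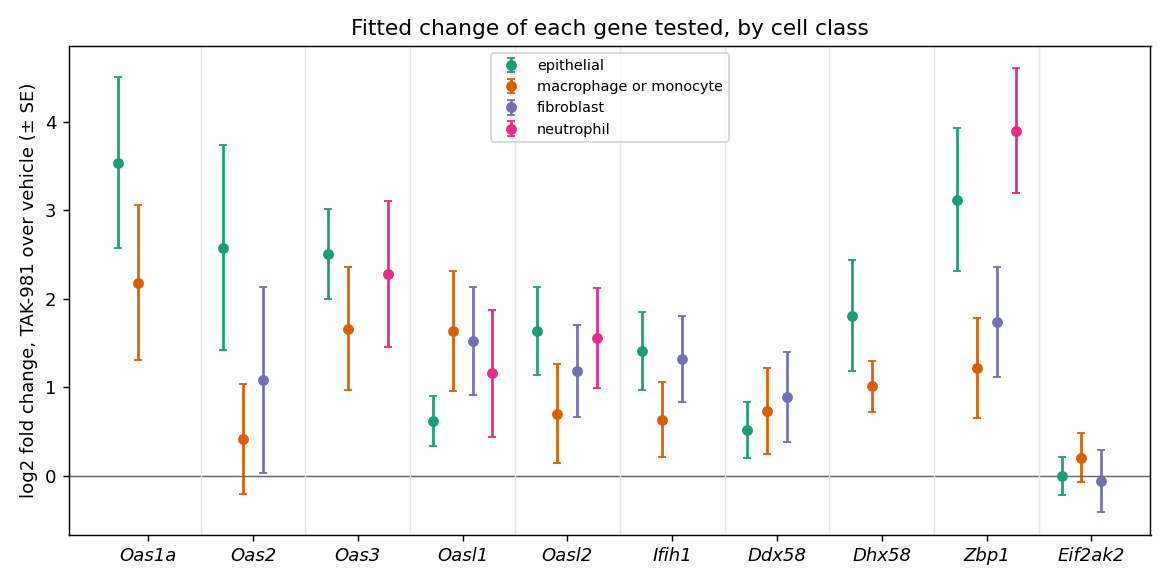
Log2 fold change of each gene, TAK-981 over vehicle (vertical axis), as points with SE bars in the epithelial, macrophage or monocyte, fibroblast and neutrophil classes that could test it, with a line at 0. Zbp1 lies between 1.22 and 3.90 in these 4 classes, while Eif2ak2 lies near 0 in epithelial cells, macrophages and fibroblasts.

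Among macrophage clusters the highest levels were in cluster 1. Cluster 1, led by the monocyte genes Ly6c2 and Ms4a4c and the interferon-induced genes Ifit2 and Rsad2, held 27.9 and 65.0% of the UMIs of the 10 genes in TAK-981 macrophages and 43.0 and 10.5% in vehicle macrophages. It held 6.17 and 22.5% of the macrophages under TAK-981 against 22.6 and 7.53% under vehicle. Cluster 17, led by Ccl8, held more of these UMIs than cluster 1 in the first TAK-981 tumour, at 41.6%, and in the second vehicle tumour, at 54.9%. The own summed level of cluster 1 was 1066 and 1869 plain CPM under TAK-981 and 711 and 187 under vehicle, and in every tumour it lay above that of the other 4 macrophage clusters. The value of the second vehicle tumour rested on 30 UMIs.

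Within each of the 5 macrophage clusters the summed level of the 10 genes was higher in both TAK-981 tumours than in both vehicle tumours, on the plain scale on which the class sum was higher too. It was 172 and 234 plain CPM under TAK-981 against 163 and 65.1 under vehicle in cluster 0 (Ccl24), and 133 and 159 under TAK-981 against 79.0 and 114 under vehicle in cluster 2 (Mmp12). It was 269 and 305 under TAK-981 against 252 and 109 under vehicle in cluster 17 (Ccl8), and 255 and 449 under TAK-981 against 140 and 56.8 under vehicle in cluster 18 (Aif1). The cluster 18 sums rested on only 81 and 21 UMIs under TAK-981 and 18 and 3 under vehicle. Oas2 there had 1 and 1 UMIs under TAK-981 against 0 and 0 under vehicle. The genes with both TAK-981 values above both vehicle values numbered 8 of 10 in cluster 1 (33.1% of the genes tested in macrophages), 6 in cluster 18 (19.8%), 5 in cluster 2 (28.2%), 3 in cluster 0 (39.0%) and 2 in cluster 17 (33.0%), so in clusters 0 and 17 the share of the 10 was not above that of all genes. Because cluster 1 was partly defined by interferon-induced genes, the cells were also clustered without the 10 genes and other interferon genes. The cluster then led by Ly6c2, Vcan and Ccr2 had 1016 and 2071 plain CPM under TAK-981 and 479 and 88.8 under vehicle, from 39 and 116 under TAK-981 against 329 and 147 cells under vehicle. No test was made within clusters.

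**Figure D4:**
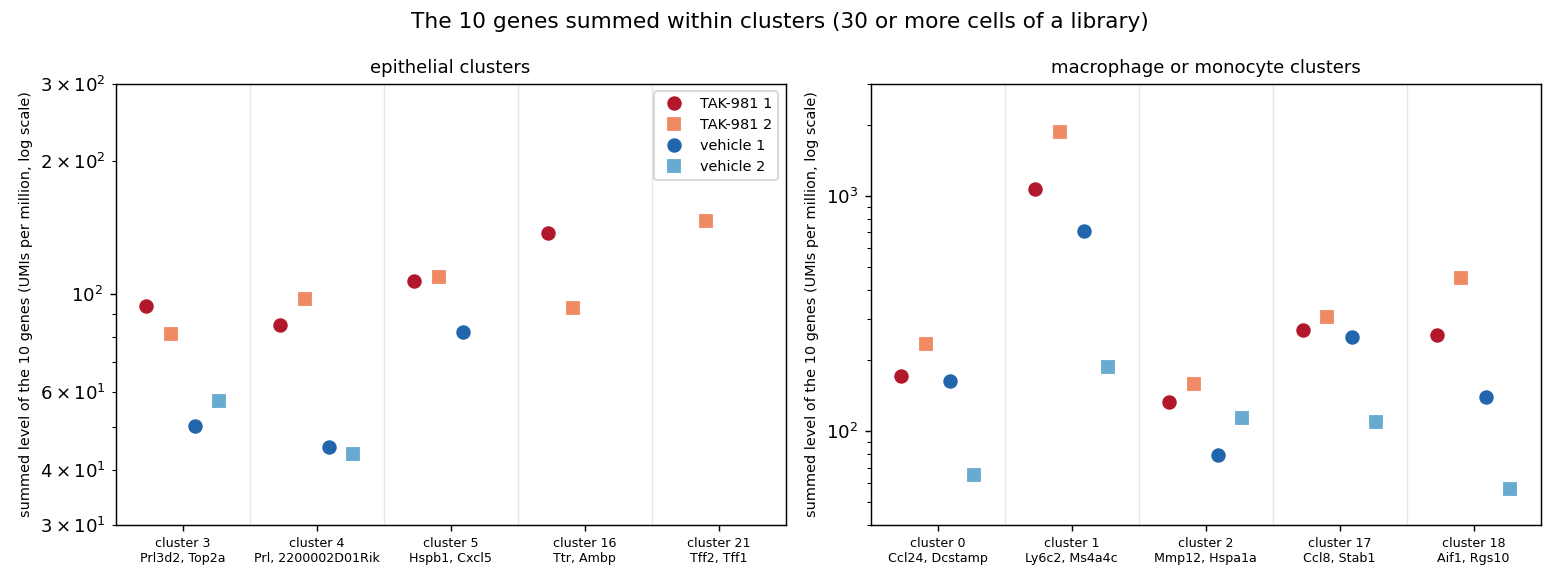
Summed level of the 10 genes, in plain CPM on a log axis, by cluster in epithelial cells (left) and macrophages or monocytes (right), with a point for each library that held at least 30 cells of the cluster and TAK-981 (red and orange) left of vehicle (blue). Among macrophage clusters cluster 1 lies highest, at 1066 and 1869 under TAK-981 against 711 and 187 under vehicle, and epithelial clusters 16 and 21 have TAK-981 points only.

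Fibroblasts numbered 76 and 104 under TAK-981 and 105 and 229 under vehicle, and 7 of the 10 genes had counts enough to test. None was called by edgeR, against 0.991% of 8977 genes, or by DESeq2, which gave no adjusted p for Oas2 and called 1.87% of genes, and 4 had an unadjusted p under 0.05, against 9.98% of all genes. The median log2 fold change was 1.19 over the 7 and 0.00 over all genes. Zbp1 (53.2 and 97.8 CPM under TAK-981 against 41.0 and 7.90 CPM under vehicle), Ifih1 (22.1 and 38.4 under TAK-981 against 16.4 and 8.89 under vehicle) and Oasl1 (11.0 and 27.5 under TAK-981 against 4.92 and 7.90 under vehicle) had both TAK-981 values above both vehicle values, 3 of 10 against 20.5% of all genes. The largest fitted change was that of Zbp1, 1.74 ± 0.62 with an edgeR adjusted p of 0.372. Without the first vehicle tumour it was 3.24 with an adjusted p of 0.0214, where 1.79% of all genes were called. Macrophage markers, all 11 detected, summed to 1029 and 196 CPM in TAK-981 fibroblasts and 75.4 and 55.3 CPM in vehicle fibroblasts, and acinar markers, all 12 detected, to 260 and 153 CPM under TAK-981 and 22.9 and 6.92 CPM under vehicle. Their part in the fibroblast results was not tested. Oas2, Oasl2 and Ddx58 overlapped, with log2 fold changes from 0.89 to 1.19. Eif2ak2 measured 33.1 and 40.3 CPM under TAK-981 against 47.5 and 30.6 CPM under vehicle (-0.06 ± 0.35), with overlapping groups as in the epithelium. Oas1a, Oas3 and Dhx58, with 1 to 5 UMIs in 3 of the 4 libraries, were not tested.

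Neutrophils were few under TAK-981, 39 and 41 cells, against 550 and 383 under vehicle, and held the only call. Zbp1 rose to 186 and 157 CPM under TAK-981, against 16.6 and 3.78 CPM under vehicle, a log2 fold change of 3.90 ± 0.71 with an edgeR adjusted p of 0.0472, and 0.388% of 2322 genes were called higher. The counts behind it were 12 and 9 UMIs under TAK-981 against 6 and 1 under vehicle, so the call rests on few molecules. It remained under DESeq2 (adjusted p = 0.0110, 1.21% of genes called) and without a filter on low counts (0.000462). It was lost with another scaling (0.0529), with doublets kept (0.151), with only cells of at least 1000 UMIs (0.145) and without any single tumour (0.303 to 0.678). Macrophage markers summed to 1460 and 1591 CPM under TAK-981 against 2372 and 1138 CPM under vehicle in these neutrophils, and Zbp1 was left at 183 and 150 CPM under TAK-981 against 7.78 and 3.02 CPM under vehicle once carried macrophage RNA was taken off. Acinar markers, all 12 detected, summed to 5002 and 665 CPM under TAK-981 against 147 and 45.4 CPM under vehicle, and their part in the result was not tested.

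Oasl2, Oas3 and Oasl1 were the other neutrophil genes tested. Oasl2 measured 326 and 402 CPM under TAK-981 and 182 and 60.5 CPM under vehicle (1.55 ± 0.57, adjusted p = 0.258). Oas3 was at 62.1 and 140 CPM under TAK-981 against 30.4 and 7.56 CPM under vehicle (2.28 ± 0.83, adjusted p = 0.257), and Oasl1 at 140 and 210 CPM under TAK-981 against 127 and 22.7 CPM under vehicle (1.15 ± 0.72, adjusted p = 0.540). None of the 3 passed, although the groups did not overlap in any of them. Without the first vehicle tumour Oasl2 was called (2.43, adjusted p = 0.0337), as were 4.01% of all genes. Over all 10 genes, 6 had both TAK-981 values above both vehicle values, against 22.7% of the genes tested in neutrophils, but 5 of the 6 had fewer than 10 UMIs in at least 1 TAK-981 library.

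T and NK cells numbered 67 and 146 under TAK-981 and 158 and 68 under vehicle, and allowed tests of Zbp1 and Ddx58 only. Neither was called by edgeR, against 0.0514% of 3888 genes, and DESeq2 gave no adjusted p for either. At an unadjusted p under 0.05 there was 1, Zbp1, against 13.7% of all genes. Zbp1 measured 79.5 and 114 CPM under TAK-981 against 41.5 and 53.4 CPM under vehicle (1.10 ± 0.46, edgeR adjusted p = 0.329), while Ddx58 measured 43.1 and 66.7 CPM under TAK-981 against 71.2 and 53.4 CPM under vehicle (-0.20 ± 0.47, adjusted p = 0.897). Dhx58 measured 9.94 and 13.3 CPM under TAK-981 against 29.6 and 13.4 CPM under vehicle, from 3 and 7 UMIs under TAK-981 and 5 and 1 under vehicle, with the second tumours level. In plain CPM the second tumours stood at 12.9 under TAK-981 and 11.3 under vehicle, so the groups overlapped.

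Dendritic cells (33 and 28 cells under TAK-981, 242 and 36 under vehicle) allowed a test of Eif2ak2 alone. It measured 44.8 and 19.7 CPM under TAK-981 against 58.2 and 34.7 CPM under vehicle (-0.65 ± 0.53, edgeR adjusted p = 0.664) and was not called by edgeR, which called 4.46% of 3277 genes. DESeq2 gave it no adjusted p, and it was not among the 14.6% of genes at an unadjusted p under 0.05. Endothelial cells (38 and 15 under TAK-981 against 62 and 89 cells under vehicle) allowed tests of Ddx58, Eif2ak2, Oasl2 and Ifih1, of which edgeR and DESeq2 called none, against 1.82% of 4680 genes by edgeR and 2.33% by DESeq2, and none had an unadjusted p under 0.05, against 16.2% of all genes. Ddx58 was at 42.8 and 64.7 CPM under TAK-981 against 32.6 and 24.0 CPM under vehicle (0.83 ± 0.55, adjusted p = 0.498), and Eif2ak2 at 65.4 and 88.9 CPM under TAK-981 against 51.3 and 41.2 CPM under vehicle (0.67 ± 0.44, adjusted p = 0.484). Macrophage markers, all 11 detected, summed to 1400 and 849 CPM in TAK-981 endothelial cells and 37.3 and 141 CPM in vehicle endothelial cells, and their part in these values was not tested. With all cells of a library summed, a value that moves with the makeup of the library, 10 genes were tested and none was called by edgeR or DESeq2. EdgeR called 0.0% and DESeq2 5.36% of 14485 genes, and 14.5% of genes and none of the 10 had an unadjusted p under 0.05.

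Whether a gene responded differently in 2 classes was tested by an interaction fit with the tumour as a term. Between macrophages and epithelial cells none of the 10 genes was called, nor any of 13162 genes (0.0%), and the differences in log2 fold change ran from -2.07 for Oas2 to 0.83 for Oasl1. The smallest adjusted p was that of Zbp1, 0.377, for a response lower by 1.83 ± 0.66 in macrophages (difference -1.83, unadjusted p = 0.0302). The calls changed when single tumours were left out. Without the second TAK-981 tumour Zbp1 differed by -2.67 (adjusted p = 2.84e-06), with Oas3, Oasl2 and Ifih1 also called lower in macrophages, 4 of 10 where 7.91% of all genes were called. Without the first TAK-981 tumour Oasl1 was called the other way (1.52, adjusted p = 0.00478), where 3.04% of all genes were called. None of the 10 was called between fibroblasts and epithelial cells (smallest adjusted p = 0.731, 0.312% of genes called), macrophages and fibroblasts (1.00, 0.214%) or macrophages and T or NK cells (0.940, 0.215%), and DESeq2 called none of the 10 in any of the 4 fits, in which it called 1.03%, 0.542%, 0.214% and 0.0195% of all genes. At an unadjusted p under 0.05 there were 1, 0, 0 and 1 of the 10 in these fits, against 11.6%, 7.85%, 5.22% and 5.21% of all genes.

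The share of cells with at least 1 UMI of a gene rises with depth, so cells were also thinned to 1000 UMIs (500 in neutrophils). In epithelial cells Zbp1 was found in 1.58 and 0.533% of thinned cells under TAK-981 and in 0 and 0.0588% under vehicle, with exact 95% intervals of 0.724 to 2.98% and 0.244 to 1.01% under TAK-981 and 0 to 0.505% and 0.00149 to 0.327% under vehicle. The 0 was of 728 cells, and 3 counts of that total would be 0.412%, a limit on cells with a UMI and not on cells that express Zbp1, while 0.505% is the upper end of the 2-sided exact interval. The shares with all UMIs were 11.7 and 5.43% under TAK-981 and 2.05 and 0.291% under vehicle, at median epithelial depths of 21428 and 24020 under TAK-981 against 16696 and 11004 UMIs under vehicle. In macrophages the thinned shares were 7.16 and 9.79% under TAK-981 against 5.98 and 1.69% under vehicle, and the shares with all UMIs 25.4 and 37.1% under TAK-981 against 12.7 and 3.52% under vehicle. Genes with both TAK-981 shares above both vehicle shares numbered 9 of 10 in thinned epithelial cells (45.0% of the genes tested there), 6 in macrophages (30.4%), 5 in neutrophils (19.9%), 4 in fibroblasts (21.5%), 4 in endothelial cells (21.3%), 1 in T or NK cells (28.8%) and 0 in dendritic cells (26.2%). With all UMIs the numbers were 10 (83.4%), 10 (86.5%), 7 (63.0%), 10 (92.5%), 8 (80.0%), 9 (92.5%) and 8 (83.2%) in the same classes, near the shares of all genes, and the TAK-981 libraries were the deeper ones. None of these classes is known to lack the 10 genes, so no background share could be set beside them.

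Across the 20 values of 5 classes and 4 libraries, the levels of the genes moved together to differing degrees. These points share libraries, depth and class, so the correlations describe them and carry no p. Of the 45 pairs of genes 40 had a Pearson correlation above 0, with a median of 0.42, and the range ran from -0.43 for Oasl1 with Ddx58 to 0.80 for Oas1a with Ifih1. Zbp1 (0.85) and Oas3 (0.83) lay closest to the mean of the 10, and Eif2ak2 (0.40), Ddx58 (0.42) and Oasl1 (0.45) farthest from it. Among 6112 other genes the 6 most like that mean were Irf7 (0.92), Gbp2 (0.90), Trim30a (0.85), Trim30d (0.84), Rnf213 (0.83) and Isg15 (0.83), over the same 20 values.

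Around these sensors stand their adaptors and regulators, for which 58 genes of nucleic acid sensing and interferon signalling were counted. In epithelial cells 46 were tested, 1 was called higher (0.606% of all genes) and none lower. Their median log2 fold change was 0.44, against 0.01 over all genes. Of the 46, 25 had both TAK-981 values above both vehicle values, where 27.1% of all genes did. In macrophages 49 were tested and none was called (0.0% of all genes), with 14 non-overlapping in that direction against 23.3% of all genes. None was called of the 41 tested in fibroblasts (0.991% of all genes), the 20 in T or NK cells (0.0514%) or the 16 in neutrophils (0.474%). Nor was any of the 23 tested in dendritic cells (4.46%) or the 25 in endothelial cells (1.82%). The call was Irf7, the master regulator of interferon induction, at 16.2 and 10.4 CPM in TAK-981 epithelial cells and 1.80 and 0.877 CPM in vehicle epithelial cells (3.35 ± 0.46, edgeR adjusted p = 0.0254). Without the second vehicle tumour the Irf7 value was 2.87 with an adjusted p of 0.0714, in cells with no macrophage-marker UMI 2.75 (0.103), and in the clusters found in every library 1.74 (0.154). In macrophages Irf7 measured 146 and 284 CPM under TAK-981 against 78.0 and 15.0 CPM under vehicle, without overlap but with an adjusted p of 0.240.

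Mavs, Stat2 and Irf9 were not called in epithelial cells. Mavs, the adaptor of RIG-I and MDA5, measured 10.6 and 9.55 CPM under TAK-981 against 4.31 and 7.19 CPM under vehicle (log2 fold change 0.80, edgeR adjusted p = 0.240). Stat2 measured 6.28 and 6.26 CPM under TAK-981 against 4.49 and 4.56 CPM under vehicle, with a log2 fold change of 0.47. Irf9, the DNA-binding partner of Stat2, measured 5.09 and 5.34 CPM under TAK-981 against 4.76 and 3.45 CPM under vehicle, with a log2 fold change of 0.35. The groups overlapped in none of the 3.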

How the data were processed

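The authors deposited raw counts, whole numbers of UMIs for each gene in each barcode. Cell Ranger 6.1.2 and mm10 are named in the submitters' processing notes, and per the labels' protocols the chemistry was 10x 3′ v3.1. Columns of other samples left unused numbered 0. The 10 genes, the marker and pathway lists and the tests were chosen with earlier results of these data known.

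Barcodes under 500 UMIs, under 250 genes or over 20% mitochondrial UMIs were dropped, and the barcodes with the highest Scrublet scores were removed as doublets at 0.8% per 1000 cells. Counts scaled to 10000 per cell were log transformed and clustered with scanpy 1.11.5 (2000 variable genes, 30 components, 15 neighbours, Leiden resolution 1.0, Python 3.11.15). Clusters with at least 3 detected markers of 1 list took its name and resemble that cell type by RNA only. Counts were summed per library and class, where every library held at least 30 cells of the class (15 for dendritic and endothelial cells). The quasi-likelihood F test of edgeR 4.0.16 (R 4.3.3, filterByExpr, TMM) was applied with Benjamini-Hochberg adjustment over all genes tested. CPM are UMIs per 1000000 of the TMM-adjusted total, and a gene below the filter has a level but no test. The SE is the log2 fold change over the square root of F. With 2 mice against 2, no exact permutation test of a single value can go below p = 0.333. Counting intervals are exact Clopper-Pearson intervals at 95%, a 0 allows 3 counts, and both cover counting error only. Replicate libraries differed far beyond sampling noise (chi-square per degree of freedom 122 for TAK-981 and 162 for vehicle). The procedure was tested on simulated counts with a fixed spread between replicates. That spread was not fitted to these libraries, so the simulation does not show how the procedure performs on them. Levels of all 10 genes are given in epithelial cells and macrophages, and of only some of them in the other classes. The pathway genes called in a class are given, with Mavs, Irf7, Stat2 and Irf9. So are the 6 genes most like the mean of the 10 (Pearson correlation of log2(CPM + 1), genes of mean CPM at least 20). Some pathway genes are not reported here.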

Additional observations from a re-analysis of the deposited data

Results flagged for a closer look

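Dhx58, encoding the RNA-binding regulator LGP2, lay higher in both TAK-981 tumours in epithelial cells and, by a margin within rounding, lower in both in T and NK cells. In epithelial cells it measured 1.75 and 1.41 CPM under TAK-981 and 0.629 and 0.292 CPM under vehicle, a difference of means of 1.12 CPM. In T and NK cells it measured 9.94 and 13.3 CPM under TAK-981 and 29.6 and 13.4 CPM under vehicle, from 3 and 7 UMIs under TAK-981 against 5 and 1 under vehicle. In plain CPM the second tumours stood at 12.9 under TAK-981 and 11.3 under vehicle in T and NK cells, so the groups overlapped. The difference between the classes was not tested.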

How the results depend on the processing

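Depth and 2 mice per group limit these results, and most members in the small classes had under 10 UMIs in some library. The number of the 10 genes called was the most sensitive value. In epithelial cells it was 0 in the main test, with 2.35% of all genes called, 5 with library totals only (12.2%) and 5 without the filter on low counts (9.73%) (in both, Oas1a, Oas3, Oasl2, Ifih1 and Zbp1), 3 by DESeq2 (10.0%), 2 with a replicate block (4.28%) and 1 with crossed pairs (3.49%), and 0 without any single tumour. Library totals moved the median of all epithelial genes by 0.52 on the log2 scale, and by 0.24 in macrophages and in fibroblasts. In macrophages it was 5 without the filter (4.02%), 2 with crossed pairs (2.05%) and 0 to 1 without a single tumour, and in fibroblasts 2 (2.51%), 1 (1.95%) and 0 to 1. In neutrophils the 1 call became 0 under size factors by relative log expression, library totals, the replicate block (edgeR adjusted p = 0.141) and kept doublets. It also became 0 with a minimum of 1000 UMIs, at Leiden resolution 2.0 and with clustering without interferon genes. In thinned neutrophils, where Zbp1 had too few UMIs to test, the number called was 0. Without a single tumour it was 0 to 1, the 1 being Oasl2 and never Zbp1. The count also moved for the macrophage minus epithelial difference without single TAK-981 tumours, as given above. It moved in dendritic cells without a single tumour, and under alternatives for the fibroblast minus epithelial difference. For those 2 cases the numbers called and the shares of all genes are not reported here, so nothing can be read from them. Members with both TAK-981 shares above both vehicle shares numbered 10 in macrophages, 10 in fibroblasts, 9 in T or NK cells, 8 in dendritic and 8 in endothelial cells with all UMIs, against 6, 4, 1, 0 and 4 after thinning. Over all genes tested the shares fell too. In the same order of classes they were 86.5, 92.5, 92.5, 83.2 and 80.0% with all UMIs and 30.4, 21.5, 28.8, 26.2 and 21.3% after thinning. The cause of these changes was not tested.

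Directions of fold changes turned under some settings for Eif2ak2, Ddx58, Oas2, Oasl2 and Ifih1. Those of the macrophage minus epithelial difference also turned for Oas3 and Oasl1. Epithelial Eif2ak2 was 0.50 with library totals, 0.0136 without the filter, 0.0206 with at most 10% mitochondrial UMIs, 0.0045 at resolution 2.0, 0.0082 without interferon genes in the clustering, 0.0191 with unnamed clusters added, and -0.12 to 0.10 without a single tumour. With library totals, fibroblast Eif2ak2 was 0.18, T or NK Ddx58 0.13 and the Eif2ak2 difference between macrophages and epithelium -0.0803. Without a single tumour, macrophage Oas2 ran from -0.25 to 2.14 and Eif2ak2 from -0.12 to 0.47, fibroblast Eif2ak2 from -0.38 to 0.26 and Oas2 from -0.21 to 7.11, T or NK Ddx58 from -0.59 to 0.14, and endothelial Oasl2 from -0.52 to 3.67 and Ifih1 from -0.48 to 1.54. The macrophage minus epithelial difference ran from -0.24 to 0.46 for Eif2ak2, -0.56 to 1.39 for Ddx58, -1.93 to 0.18 for Oas3, -0.0106 to 1.60 for Oasl1 and -1.83 to 0.0394 for Oasl2. Of the other fold changes under an alternative that kept every tumour, 401 kept direction and side of the threshold, 25 passed it and 7 lost it. Fits without a single tumour are not in this tally. DESeq2 gave no adjusted p for Oas2 (epithelial cells and fibroblasts), Ddx58 and Zbp1 (T or NK cells), Oas3 (neutrophils) and Eif2ak2 (dendritic cells). The fits with crossed pairs, with unnamed clusters and with clusters found in every library were chosen after the data were seen.

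Same-numbered libraries came from different mice and their deviations correlated at -0.24 to -0.05 within classes, so the replicate block pairs a number only. Fits of cells free of macrophage-marker UMIs outside the epithelium could not be made.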

Other observations

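Cells in no compared class also held these transcripts. Summed over the 10 genes, B cells (9 and 3 cells under TAK-981, 430 and 14 under vehicle) had 183 and 264 plain CPM under TAK-981 and 92.8 and 0 under vehicle. These came from only 5 and 2 UMIs under TAK-981 against 49 and 0 under vehicle. Ddx58 supplied 23 of the 49 UMIs in the first vehicle library. Acinar cells, the enzyme-secreting cells of the pancreas, had 125 and 55.3 plain CPM under TAK-981 (146 and 36 cells) and 33.8 in the 1 vehicle library that held any (14 cells). The acinar values came from 43 and 38 UMIs under TAK-981 and only 2 under vehicle. Cells of unnamed clusters had 76.1 and 88.6 plain CPM under TAK-981 (448 and 353 cells) and 62.9 and 24.5 under vehicle (590 and 769 cells).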
